A study of Mus musculus with 12 samples.

Results

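Homologous recombination and the Fanconi anemia pathway were followed through 42 mouse genes, chosen by name from the 54446 genes of the count table. All 42 were found, each in 1 row, and all 42 were among the 14724 genes that passed the filter on low counts (27% of the table). RNA was sequenced from NIH3T3 cells, an immortalised line of mouse embryonic fibroblasts, and from ΔN-VEGF cells (labelled dNVEGF) made from them. N-VEGF is the amino-terminal piece of the long VEGF-A protein, which is translated from an upstream start codon in low oxygen. Each line was kept for 16 h either in normoxia or in hypoxia below 0.2% oxygen, with 3 cultures in each of the 4 groups and 12 samples in all. The wild-type (WT) cells carried no edit. In the ΔN-VEGF cells the N-VEGF coding sequence had been replaced on both alleles with Cas9, guide RNAs and reporter cassettes, and the cassettes were then removed with the VCre recombinase and the non-fluorescent cells sorted. The ΔN-VEGF cells go back to a few picked single clones, and WT cells taken through the same selection, retrovirus and sorting were not among the samples, so an effect of the deletion and an effect of cloning cannot be told apart. The labels do not say whether the 3 cultures of a group were grown separately, and p-values measure the spread between these samples, which may be technical.

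Cells use homologous recombination to repair broken chromosomes and collapsed replication forks with the sister chromatid as template, which confines the pathway largely to S and G2 phase. The Fanconi anemia proteins act one step earlier at DNA interstrand crosslinks: a core complex adds ubiquitin to FANCD2 and FANCI, the crosslink is cut out, and the resulting break is handed to the recombination proteins. BRCA1, PALB2, BRCA2 and the paralog complexes, built from RAD51B, RAD51C, RAD51D, XRCC2 and XRCC3, then prepare the resected end for strand exchange. Transcription of many of these genes rises with S phase entry, under E2F factors, and lower transcription of Brca1 has long been described in hypoxic cells.

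The 5 comparisons used the raw counts of all 12 samples in edgeR's quasi-likelihood test, with the p-values adjusted over all 14724 genes by the Benjamini-Hochberg method. A gene was said to have risen or fallen where the adjusted p was below 0.05. Levels are given as CPM, the count of a gene scaled to a common library total and corrected for composition. Counts on genes came to between 30519052 and 43056690 per sample. Replicate 2 of WT normoxia stood apart from the other libraries, with a chi-square per gene of 341 and 363 against its fellow replicates, where replicates 1 and 3 gave 6.28. For the 42 repair genes, the level in that library was a median of 2.33 times the mean of replicates 1 and 3, and 22 genes were more than 2 times higher. Such ratios were not taken over all tested genes, so they are not a trait of the repair genes alone. Replicate 2 of ΔN-VEGF normoxia also stood apart, with a chi-square per gene of 79.4 and 73.6, where replicates 1 and 3 gave 4.02. For the repair genes it differed from its fellows in the same direction, with a median ratio of 1.25, no gene above 2 and Fancb highest at 1.87. Most calls and counts that rest on WT normoxia are therefore also given without replicate 2 of WT normoxia. The counts of groups that do not overlap, and those by DESeq2 or unadjusted p, are given only with it. So are the 2-fold counts in WT hypoxia and the calls of single marker genes. Vegfa, which holds the deleted sequence, measured 86.2, 39.4 and 82.6 CPM in WT normoxia, 277, 272 and 291 CPM in WT hypoxia, 37.3, 34.2 and 35.5 CPM in ΔN-VEGF normoxia and 437, 419 and 430 CPM in ΔN-VEGF hypoxia. The count covers the whole gene, most of which was kept, so it is no check of the deletion. All 10 fibroblast markers were detected in both lines. Of 6 epithelial, 5 endothelial and 6 leukocyte markers, most were near 0, among them Epcam with no count in any sample, Kdr with at most 1 and Ptprc with at most 2 counts in a sample. The leukocyte sum nonetheless ranged from 0.867 to 9.03 CPM in WT normoxia, 29.0 to 30.3 CPM in WT hypoxia, 3.04 to 6.49 CPM in ΔN-VEGF normoxia and 50.3 to 53.8 CPM in ΔN-VEGF hypoxia, nearly all of it Csf1r. Cdh5, an endothelial marker, reached 24.4 CPM and Krt14, an epithelial marker, 9.45 CPM, and Csf1r, Cdh5 and Krt14 rose in hypoxia in both lines. Their part in the results was not tested.

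**Figure D1:**
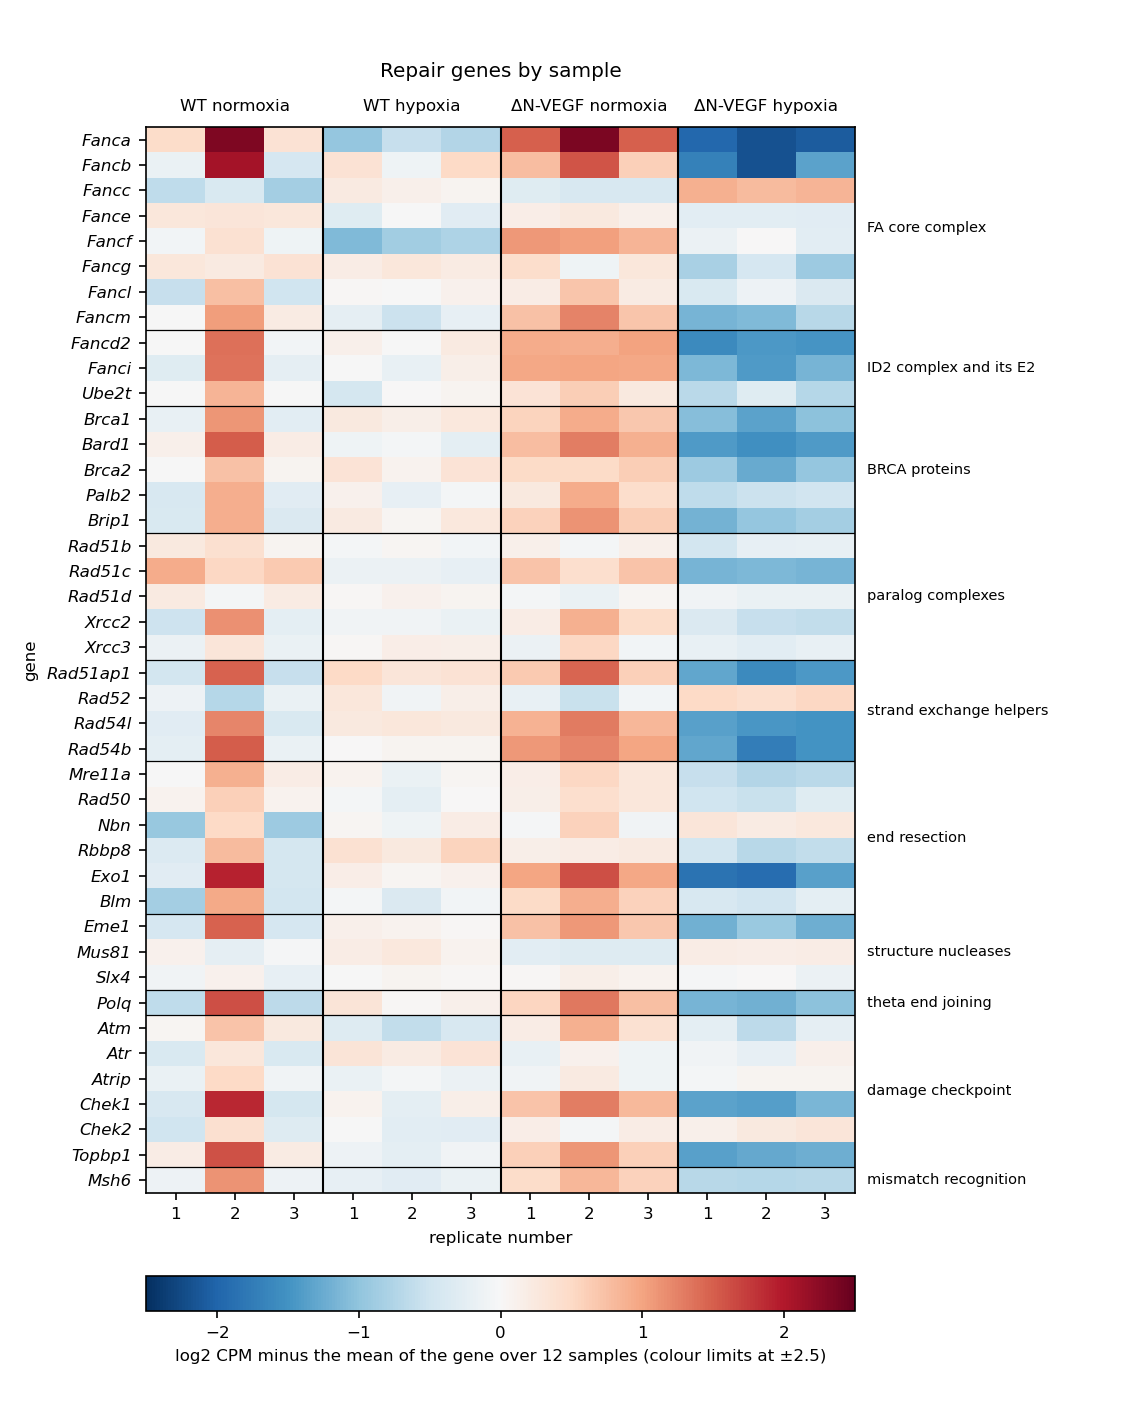
Level of each of the 42 repair genes (rows, by role) in each of the 12 samples (columns, 3 replicates per group), as log2 CPM minus the mean of the gene over all samples; red is above and blue below that mean. The 3 ΔN-VEGF hypoxia columns are mostly blue, with medians over the genes of -0.652 to -0.684, and replicate 2 of WT normoxia is mostly red, with a median of 0.874.

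The 42 genes differed widely in abundance. Per kilobase of annotated exon, Msh6 was the most abundant, at 26.2 CPM per kb in WT normoxia and 12.2 CPM per kb in ΔN-VEGF hypoxia. Fance followed in WT normoxia at 11.4 CPM per kb, Rad50 at 10.9 CPM per kb and Topbp1 at 9.89 CPM per kb. Fancc was the lowest in that group, at 0.518 CPM per kb, and Fancb was the lowest in ΔN-VEGF hypoxia, at 0.157 CPM per kb. On the log2 CPM scale, 26 of the 42 genes had their 3 lowest samples in ΔN-VEGF hypoxia. The highest sample was replicate 2 of WT normoxia for 25 genes and replicate 2 of ΔN-VEGF normoxia for 9 genes. Such counts were not made over all tested genes, so they do not set the repair genes apart.

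The question of the first comparison was how ΔN-VEGF cells responded to hypoxia. Most of the pathway fell. Of the 42 genes, 31 fell, 3 rose and 8 did not pass the test, while 26.4% of all tested genes fell and 26.9% rose. A fall of at least 2-fold was seen for 23 genes, against 12.7% of all genes, and a rise of that size for 1 gene, against 14.6%. The median log2 fold change was -1.1 for the repair genes and -0.0102 for all tested genes. For 34 genes every hypoxic culture was below every normoxic culture, as it was for 35.6% of all genes, and for 3 genes every hypoxic culture was above, against 34.9%. In bulk RNA, fewer cells that express a gene and less RNA per cell cannot be told apart. Replicate 2 of WT normoxia enters this comparison only through the filter, the scaling and the shared estimate of spread. Leaving it out gave 32 genes lower and 3 higher, against 34.3% and 32.8% of all genes.

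The Fanconi anemia core complex held the largest single change. Fanca, which encodes a scaffold subunit, measured 28.2, 51.6 and 28.5 CPM in the normoxic ΔN-VEGF cultures and 2.54, 2.19 and 2.33 CPM in the hypoxic ones. No hypoxic culture came near a normoxic one, and Fanca fell 15.3-fold (log2 fold change -3.94, SE 0.525, adjusted p 9.6e-05). Fancb, whose protein pairs with FANCL and FAAP100 in the catalytic module, went from 2.82, 4.95 and 2.47 CPM to 0.470, 0.322 and 0.613 CPM. Its groups were also fully apart, and it fell 7.23-fold (log2 fold change -2.85, SE 0.677). Fancm, the translocase that anchors the complex on DNA, measured 10.7, 15.4 and 10.5 CPM in normoxia and 2.85, 2.99 and 3.99 CPM in hypoxia, a fall of 3.72-fold. Fancf, an adaptor subunit, fell from 12.8, 12.2 and 10.9 CPM to 5.39, 6.02 and 5.03 CPM, or 2.18-fold, again without overlap. Smaller falls were measured for Fancg, which stabilises FANCA (log2 fold change -0.95), and Fance, which binds FANCD2 (-0.45), and the ubiquitin ligase subunit Fancl changed by -0.67 with an adjusted p of 0.089.

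Fancc moved the other way. Its product forms a subcomplex with FANCE and FANCF. The level was 5.34, 4.97 and 5.02 CPM in ΔN-VEGF normoxia and 12.2, 11.5 and 11.9 CPM in ΔN-VEGF hypoxia, and every hypoxic culture was above every normoxic one. The rise was 2.32-fold (log2 fold change 1.21, SE 0.131, adjusted p 2.1e-05). The library kit did not mark the strand, and 18.6% of the exon bases of Fancc lie over exons of genes on the opposite strand, so part of its count may belong to them. The same holds for 10.5% of the exon bases of Fanca, which lie over Zfp276, and 15.0% of those of Fancf, over Gas2. Of the 42 genes, 9 share over 10% of their exon bases with another gene, which also include Rad54l (15.4%, over Lrrc41), Fancl (13.7%, over Vrk2), Eme1 (10.7%) and Atrip (16%, with Trex1 on the same strand).

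The targets of the core complex fell together. Fancd2, the subunit that receives the ubiquitin, measured 19.6, 19.3 and 20.6 CPM in ΔN-VEGF normoxia and 3.35, 3.76 and 3.65 CPM in hypoxia. The replicates within each condition were close and the conditions far apart, with a fall of 5.52-fold (log2 fold change -2.46, SE 0.338, adjusted p 0.00012). Its partner Fanci went from 18.1, 18.3 and 18.1 CPM to 4.23, 3.44 and 4.08 CPM, a fall of 4.63-fold, where 16% of the exon bases are shared with Polg. Ube2t, the conjugating enzyme of the reaction, fell by 0.97 on the log2 scale, from 5.06, 6.06 and 4.68 CPM to 2.47, 3.22 and 2.39 CPM.

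All 5 BRCA genes fell at least 2-fold. Brca1, a ubiquitin ligase that promotes end resection, measured 35.6, 46.3 and 38.4 CPM in ΔN-VEGF normoxia and 11.6, 9.49 and 11.8 CPM in hypoxia, without overlap, and fell 3.66-fold (log2 fold change -1.87, SE 0.314, adjusted p 0.00048). Bard1, its obligate partner, went from 9.63, 13.7 and 10.4 CPM to 2.07, 1.90 and 2.05 CPM, or 5.60-fold lower. Brca2, which acts on the resected single strand, went from 12.8, 12.8 and 14.1 CPM to 4.89, 3.83 and 4.69 CPM, or 2.96-fold lower. Both pairs of groups were fully apart. Brip1, a helicase bound to BRCA1, measured 16.8, 24.4 and 17.0 CPM in normoxia and 4.89, 5.69 and 6.16 CPM in hypoxia and fell 3.47-fold. Palb2, the link between BRCA1 and BRCA2, measured 4.16, 6.66 and 4.75 CPM and then 2.22, 2.38 and 2.48 CPM, and fell 2.19-fold, the smallest change of the 5.

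**Figure D2:**
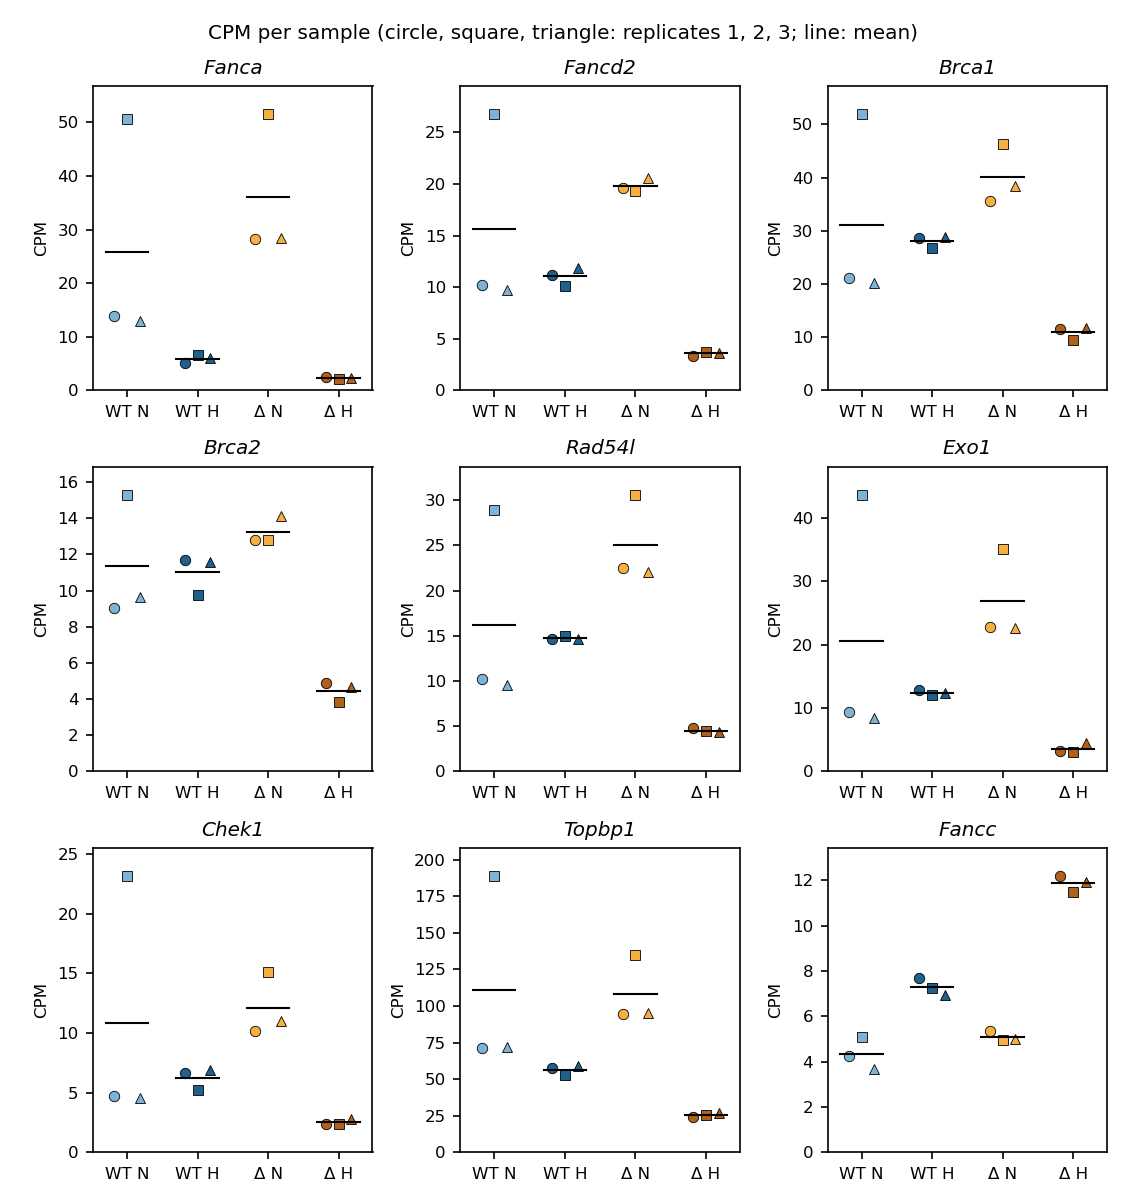
CPM per sample for 9 repair genes, in WT normoxia (WT N), WT hypoxia (WT H), ΔN-VEGF normoxia (Δ N) and ΔN-VEGF hypoxia (Δ H); symbols are replicates 1 to 3, lines are group means and each axis starts at 0. The ΔN-VEGF hypoxia samples are the lowest for 8 of the genes and the highest for Fancc, and replicate 2 of WT normoxia stands above its fellow replicates, by 3.78 times for Fanca.

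The members of the paralog complexes, which assist strand exchange, did not move as a family. Rad51c, shared by both paralog complexes, measured 7.45, 6.04 and 7.45 CPM in ΔN-VEGF normoxia and 2.0, 2.06 and 1.99 CPM in hypoxia, without overlap, and fell 3.45-fold (log2 fold change -1.79, SE 0.148, adjusted p 2.8e-06). Xrcc2 went from 5.96, 9.83 and 7.28 CPM to 4.07, 3.51 and 3.43 CPM, and fell 2.09-fold (adjusted p 0.031). Rad51b fell by 0.36 on the log2 scale, from 6.01, 5.35 and 6.05 CPM to 4.01, 4.76 and 4.81 CPM. In these genes the hypoxic cultures lay below all normoxic ones. Rad51d, the partner of XRCC2, measured 15.7, 14.6 and 17.0 CPM in normoxia and 15.3, 14.6 and 14.6 CPM in hypoxia, and its groups overlapped (log2 fold change -0.09, 95% interval -0.315 to 0.144, adjusted p 0.51). Xrcc3, the partner of RAD51C, measured 8.10, 12.9 and 8.58 CPM and then 7.93, 7.56 and 7.97 CPM. Its hypoxic cultures also lay below all normoxic ones, but its adjusted p was 0.16.

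**Figure D3:**
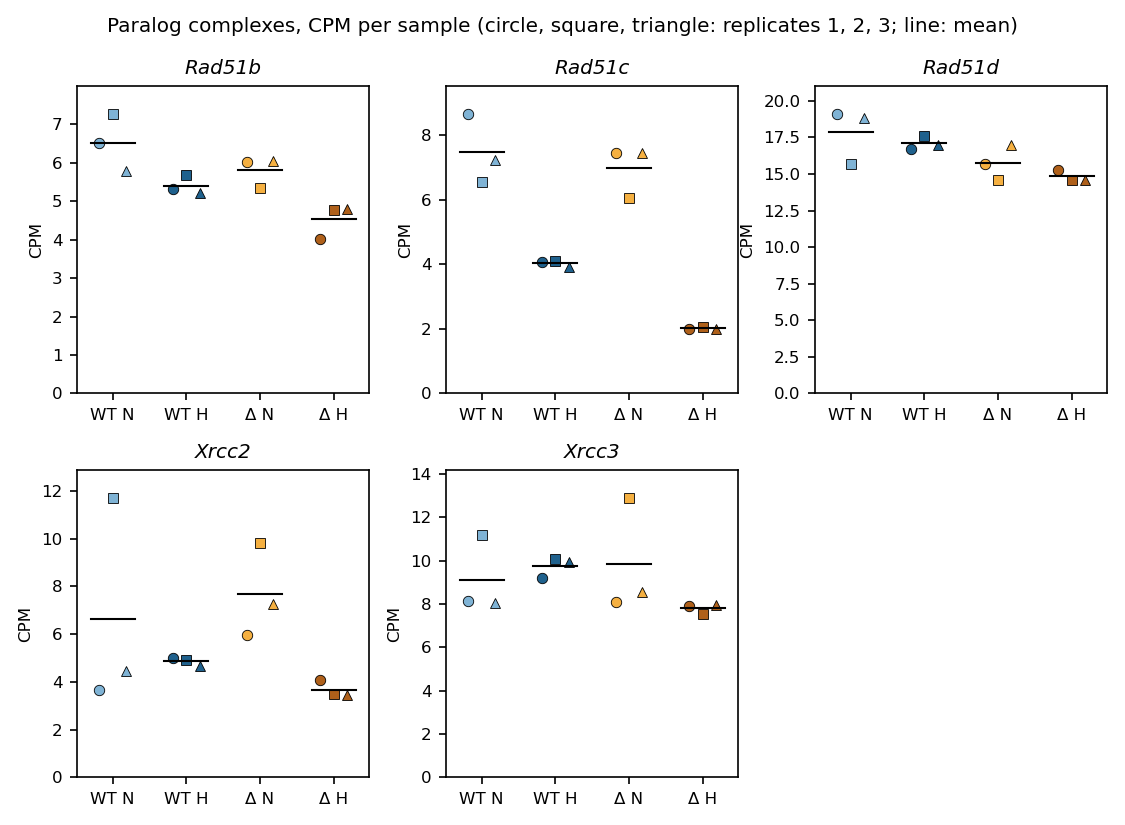
CPM per sample for Rad51b, Rad51c, Rad51d, Xrcc2 and Xrcc3 in the 4 groups (WT N and WT H, WT normoxia and hypoxia; Δ N and Δ H, ΔN-VEGF normoxia and hypoxia), with replicates 1 to 3 as symbols, the group mean as a line and each axis starting at 0. Rad51c is lower in hypoxia in both lines, at 3.90 to 4.11 CPM in WT and 1.99 to 2.06 CPM in ΔN-VEGF cells, while Rad51d stays between 14.6 and 19.1 CPM in all samples.

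Of the 4 strand exchange helpers, 3 fell by more than 5-fold. Rad54l, a motor protein that drives strand invasion, measured 22.5, 30.6 and 22.0 CPM in ΔN-VEGF normoxia and 4.76, 4.47 and 4.32 CPM in hypoxia, and fell 5.53-fold (log2 fold change -2.47, SE 0.374, adjusted p 0.00024). Rad54b, its relative, went from 8.66, 9.52 and 8.16 CPM to 1.63, 1.19 and 1.41 CPM and fell 6.21-fold, although 35.9% of its exon bases are shared, mainly with Fsbp on the same strand. Rad51ap1, which stimulates joint molecule formation, went from 15.4, 26.9 and 14.8 CPM to 3.95, 3.22 and 3.56 CPM and fell 5.32-fold. None of these groups overlapped. Rad52, a single-strand annealing protein, rose by 0.73 on the log2 scale (SE 0.176, adjusted p 0.0049), from 17.6, 13.6 and 19.1 CPM to 28.3, 26.7 and 28.5 CPM, and its groups were apart in the opposite order.

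Among the genes of end resection, Exo1, the exonuclease of long-range resection, had the second largest change of the 42. It measured 22.8, 35.2 and 22.6 CPM in ΔN-VEGF normoxia and 3.16, 3.02 and 4.45 CPM in hypoxia, and fell 7.56-fold (log2 fold change -2.92, SE 0.564, adjusted p 0.0012). Blm, the helicase that works with DNA2 and dissolves joint molecules, went from 21.1, 28.5 and 22.7 CPM to 11.5, 10.8 and 12.8 CPM and fell 2.06-fold. Both genes had hypoxic values below all normoxic ones. The MRN complex, which opens resection, split: Mre11a fell by 0.99 and Rad50 by 0.74 on the log2 scale, and Nbn, the third subunit, measured 13.9, 21.2 and 13.3 CPM in normoxia and 17.5, 16.2 and 17.0 CPM in hypoxia, with overlapping groups and an adjusted p of 0.88. Rbbp8, which encodes CtIP, the cofactor of MRN, fell by 0.77.

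The structure nucleases also split. Eme1 fell 3.90-fold, from 12.8, 16.3 and 12.2 CPM to 3.32, 3.99 and 3.28 CPM. Its partner in the same nuclease, Mus81, rose by 0.48 on the log2 scale (SE 0.0996, adjusted p 0.0019), from 19.1, 18.4 and 18.5 CPM to 26.2, 26.0 and 26.1 CPM. Neither gene had overlapping groups. Slx4, the nuclease scaffold, measured 34.7, 37.4 and 36.0 CPM in normoxia and 33.1, 33.9 and 30.5 CPM in hypoxia (log2 fold change -0.15, adjusted p 0.22). Polq, the polymerase of theta-mediated end joining, a route that competes with recombination, went from 7.24, 12.6 and 8.48 CPM to 2.19, 2.16 and 2.42 CPM and fell 4.17-fold.

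In the damage checkpoint, the ATR branch held both large falls and genes that did not pass the test. Chek1, the effector kinase, measured 10.2, 15.1 and 11.0 CPM in ΔN-VEGF normoxia and 2.41, 2.35 and 2.79 CPM in hypoxia, and fell 4.80-fold (log2 fold change -2.26, SE 0.551, adjusted p 0.0052). Topbp1, the activator of ATR, went from 94.2, 135 and 95.2 CPM to 24.5, 25.8 and 27.0 CPM and fell 4.2-fold. Both were without overlap between conditions. The kinase itself, Atr, measured 14.9, 18.3 and 15.8 CPM and 15.9, 14.8 and 18.6 CPM, and its partner Atrip 13.7, 17.1 and 13.6 CPM and 14.2, 15.3 and 15.4 CPM, with adjusted p values of 0.96 and 0.94. Atm, the kinase of the break response, fell by 0.88, and its effector Chek2 changed by 0.12 with an adjusted p of 0.64. Msh6, the mismatch recognition subunit, measured 118, 153 and 128 CPM in normoxia and 52.8, 52.4 and 53.3 CPM in hypoxia, and fell 2.52-fold without overlap.

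In WT cells under the same hypoxia fewer genes passed the test. With all samples, 8 of the 42 genes fell and 1 rose, against 18.3% and 18.2% of all tested genes, and 33 did not pass the test. The share of the repair genes that fell was 19%, near that of all genes. The median log2 fold change was -0.317, against -0.071 for all genes. Groups did not overlap in 11 genes in the lower direction, against 21.8% of all genes, and in 2 in the higher direction, against 23.2%. Falls of at least 2-fold were seen for Fanca and Fancf only, in 4.76% of the genes against 6.53% of all genes, and no gene rose that much by edgeR's test, against 9.17%. Leaving out any 1 of the hypoxic WT cultures, or replicate 1 or 2 of ΔN-VEGF hypoxia, brought the 8 genes to 4 or 5, where between 12.2% and 16% of all genes fell.

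Fanca measured 13.9, 50.7 and 12.9 CPM in WT normoxia and 5.09, 6.68 and 6.04 CPM in WT hypoxia. The hypoxic cultures were below all normoxic ones, and replicate 2 of normoxia was far above the other normoxic cultures. Fanca fell 4.36-fold (log2 fold change -2.12, SE 0.479, adjusted p 0.0052), and without that library by 1.17 on the log2 scale (adjusted p 0.00083). Fancf measured 5.71, 7.85 and 5.59 CPM and then 2.75, 3.25 and 3.52 CPM, and fell 2.01-fold, or by 0.83 on the log2 scale without replicate 2. Rad51c, at 8.65, 6.55 and 7.21 CPM in WT normoxia and 4.08, 4.11 and 3.90 CPM in hypoxia, fell by 0.89 (SE 0.141, adjusted p 0.00057) and by 0.97 without replicate 2. For these 3 genes the direction was the same in both lines. Fancc rose from 4.25, 5.09 and 3.66 CPM to 7.71, 7.26 and 6.93 CPM (log2 fold change 0.75, SE 0.132, adjusted p 0.0011), also as in ΔN-VEGF cells, and by 0.89 without replicate 2.

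The other WT calls depended in part on replicate 2 of normoxia. Atm fell by 0.80, Topbp1 by 0.98 and Fance by 0.49 with all samples, and these fell by 0.58, 0.34 and 0.48 without that library. Bard1 and Fancm fell by 0.91 and 0.80 with all samples, and changed by -0.30 and -0.40 without it, with adjusted p values of 0.11 and 0.091. In that fit, 12 of the 42 genes rose and 6 fell, against 27.1% and 26.9% of all genes, and the median over the genes was 0.249. The 12 genes that rose were Fancc, Fancl, Brca1, Brip1, Rad51ap1, Rad54l, Nbn, Rbbp8, Blm, Eme1, Polq and Atr. Nbn rose most, by 0.99, followed by Rad51ap1 by 0.92, Fancc by 0.89 and Polq by 0.82.

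Brca1 shows what the library decides. It measured 21.2, 52.0 and 20.2 CPM in WT normoxia and 28.7, 26.7 and 28.9 CPM in WT hypoxia. Replicate 2 lay above all hypoxic cultures and the other normoxic cultures below them, and the log2 fold change was -0.15 with an adjusted p of 0.73. Without replicate 2 it was 0.45, a rise with an adjusted p of 0.0067. Rad54l, at 10.2, 28.9 and 9.50 CPM and then 14.6, 15.0 and 14.6 CPM, and Polq, at 3.20, 15.3 and 3.16 CPM and then 6.23, 5.07 and 5.48 CPM, had the same order of samples. Without both normoxia libraries numbered 2, 22 genes rose and 8 fell in WT cells, against 32.8% and 32.5% of all genes.

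**Figure D4:**
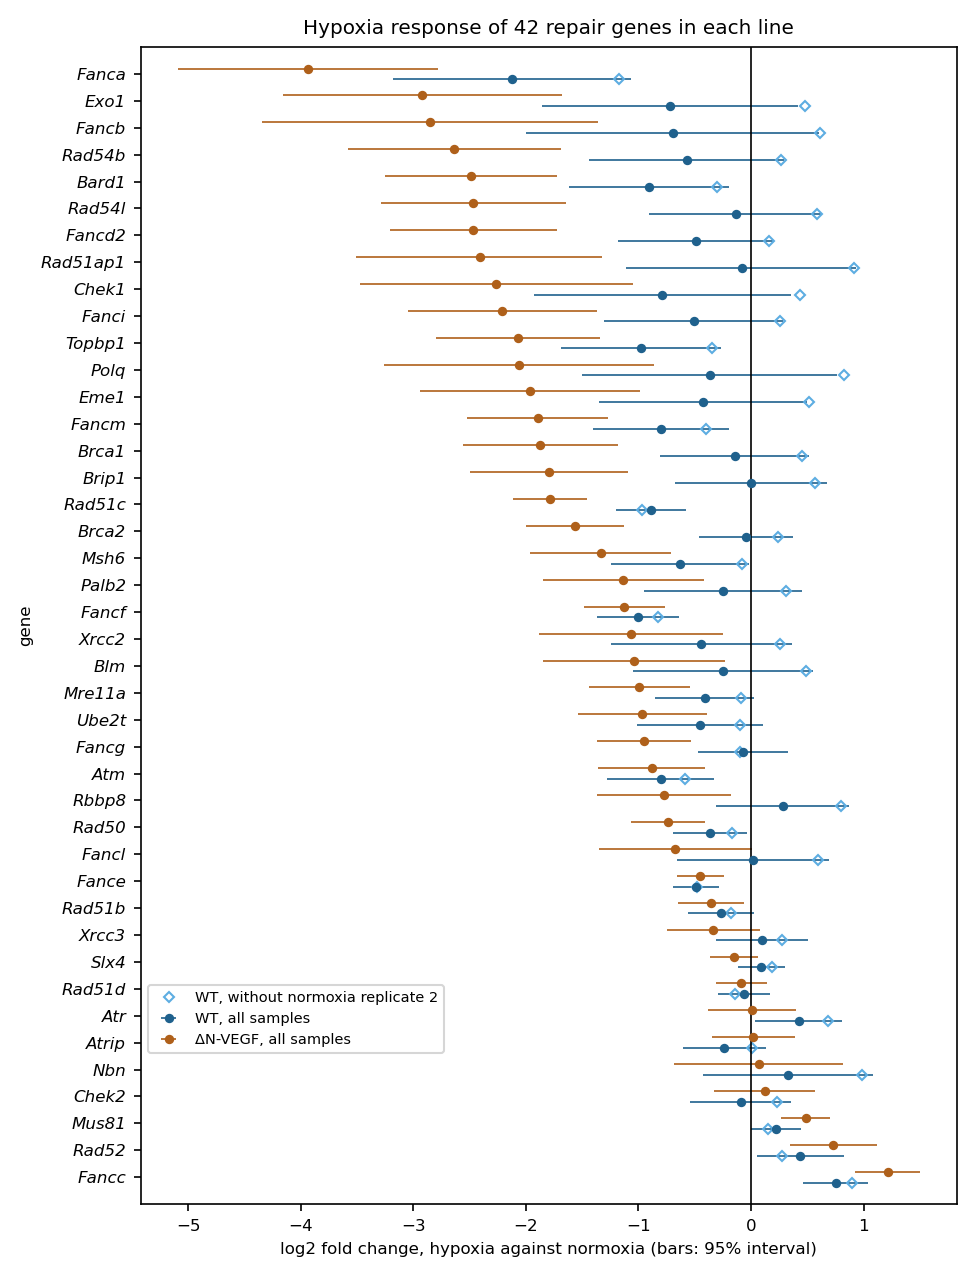
Log2 fold change of hypoxia against normoxia for the 42 repair genes in WT (blue) and ΔN-VEGF cells (brown), with 95% intervals from all 12 samples, and the WT estimate without replicate 2 of normoxia (open diamonds), ordered by the ΔN-VEGF value. The ΔN-VEGF values run from -3.94 for Fanca to 1.21 for Fancc, and for 12 genes the WT value without that library is a rise that passed the test.

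The lines were next compared in normoxia. With all samples, 1 of the 42 genes was higher in ΔN-VEGF cells and none was lower by edgeR's test, against 1.39% and 2.97% of all genes. DESeq2 called the same numbers, against 2.69% and 5.47%, and at an unadjusted p below 0.05 edgeR had 1 gene in each direction, against 6.17% and 12.8%. Groups did not overlap in 1 gene in the higher direction, against 6.55% of all genes, and in 2 in the lower direction, against 9.72%. The gene called was Fancf, at 12.8, 12.2 and 10.9 CPM in ΔN-VEGF and 5.71, 7.85 and 5.59 CPM in WT cells, where no sample overlapped (log2 difference 0.91, SE 0.16, adjusted p 0.011). In this comparison same-numbered samples of both lines deviated together from their group means, and in a fit of these 6 samples with the replicate number as a block, added after the data were seen, 0 genes of the 42 were called, where 0.00718% of all genes were called higher and 0% lower, so that this count says nothing about the 42. The log2 difference of Fancf was 0.93 with an adjusted p of 0.16 in that fit, and 1.095 with an adjusted p of 3.4e-05 without replicate 2 of WT normoxia.

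Without replicate 2 of WT normoxia, 29 of the 42 genes were higher in ΔN-VEGF cells and 2 were lower, against 25.7% and 23.2% of all genes, and the median log2 difference was 0.802. At least 2-fold higher were 15 genes, against 4.59% of all genes. Exo1 had a log2 difference of 1.60 in this fit, Polq 1.58, Rad51ap1 1.49, Fanca 1.44 and Chek1 1.39. Lower were Mus81 (log2 difference -0.33) and Rad51d (-0.26). For Exo1 the ΔN-VEGF cultures had 22.8, 35.2 and 22.6 CPM, WT replicates 1 and 3 had 9.4 and 8.48 CPM, and WT replicate 2 had 43.7 CPM. That order, with replicates 1 and 3 of WT below and replicate 2 above every ΔN-VEGF culture, was shared by Polq, Chek1 and Fancd2.

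In hypoxia, where the replicates of both lines were close, more of the genes were called lower than higher in ΔN-VEGF than in WT cells. Lower were 15 of the 42 genes and higher were 2, against 9.36% and 10.8% of all genes, and 11 were at least 2-fold lower, against 3.94%, and none at least 2-fold higher, against 2.87%. The median log2 difference was -0.588, against -0.0147 for all genes. All ΔN-VEGF cultures were below all WT cultures for 30 genes, against 30.1% of all genes, and above them for 6, against 29.7%. These 12 samples share 1 estimate of spread, which replicate 2 of WT normoxia widens: without it the counts were 26 lower and 4 higher, against 21.2% of all genes in each direction, and in a fit of the 6 hypoxic samples alone they were 30 and 4, against 29.1% and 27.9% of all genes. With the replicate number as a block in those 6 samples, a fit added after the data were seen, they were 32 and 5, against 31.2% and 30%. Leaving out any 1 of the 6 hypoxic cultures from the fit of all samples brought the 15 genes to 5 or 6, where between 4.49% and 6.49% of all genes were lower.

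Rad51ap1 had the largest difference among the genes called, with 13.9, 12.1 and 12.5 CPM in WT hypoxia and 3.95, 3.22 and 3.56 CPM in ΔN-VEGF hypoxia (3.59-fold lower, log2 difference -1.84, SE 0.493, adjusted p 0.024). Exo1 followed, with 12.8, 12 and 12.4 CPM against 3.16, 3.02 and 4.45 CPM (3.5-fold lower), then Rad54l, with 14.6, 15.0 and 14.6 CPM against 4.76, 4.47 and 4.32 CPM (3.26-fold lower). Fancd2 was at 11.2, 10.1 and 11.9 CPM in WT and 3.35, 3.76 and 3.65 CPM in ΔN-VEGF hypoxia, or 3.09-fold lower. In each of these the lines did not overlap.

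Brca1, at 28.7, 26.7 and 28.9 CPM against 11.6, 9.49 and 11.8 CPM, was 2.57-fold lower, Bard1 2.53-fold, Brca2 2.46-fold and Brip1 2.27-fold. The remaining genes called lower were Rad54b, Fanci, Topbp1, Rad51c, Rbbp8, Fancg and Mre11a, with log2 differences from -1.58 for Rad54b to -0.66 for Mre11a. Fancc and Fancf were higher, by 0.70 and 0.79. Fancf thus stood above WT in both conditions while it fell in both lines. Fanca, with 5.09, 6.68 and 6.04 CPM against 2.54, 2.19 and 2.33 CPM, and Fancb, with 2.1, 1.51 and 2.32 CPM against 0.470, 0.322 and 0.613 CPM, had no overlap but adjusted p values of 0.084 and 0.054, and 0.00093 and 0.00041 without replicate 2 of WT normoxia.

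The difference between the lines in their hypoxia response was tested by the interaction. A value below 0 means a more negative response in ΔN-VEGF than in WT cells. With all samples 4 of the 42 genes were called below 0 and none was called above 0, against 1.15% and 2.21% of all genes. DESeq2 called 12 and 0, against 3.47% and 7.21% of all genes, and at an unadjusted p below 0.05 edgeR had 19 and 1, against 8.34% and 12.7%. The 4 genes were Rad54l, with a log2 difference of responses of -2.33 (SE 0.505, adjusted p 0.034), Fancd2 with -1.98 (SE 0.455, adjusted p 0.041), Brca2 with -1.53 (SE 0.273, adjusted p 0.017) and Rad51c with -0.90 (SE 0.202, adjusted p 0.039). Brca2 measured 9.06, 15.3 and 9.65 CPM in WT normoxia and 11.7, 9.73 and 11.6 CPM in WT hypoxia, so its WT groups overlapped while those of ΔN-VEGF cells did not.

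These 4 calls sat close to the threshold. Leaving out single samples gave between 0 and 3 genes called below 0, where between 0.151% and 1.83% of all genes were. The exception was the fit without replicate 2 of WT normoxia, with 32 genes called below 0. Such a value can also come from a rise in WT cells. Nbn rose by 0.99 in WT cells without that library and changed by 0.06 in ΔN-VEGF cells. In that fit 1 gene, Mus81, was called above 0, and 23% of all genes were called below and 21.4% above. The differences were then -3.47 for Fancb, -3.41 for Exo1, -3.34 for Rad51ap1 and -3.06 for Rad54l. The 9 genes not called were Fancc, Fance, Fancf, Rad51b, Rad51d, Rad52, Atm, Atrip and Chek2. Brca1 had a difference of -1.73 with an adjusted p of 0.056 with all samples and -2.33 with an adjusted p of 6.9e-07 without that library.

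Markers of the cell cycle were summed beside the repair genes. The summed level of 20 S phase genes, none of which is among the 42, ranged from 817 to 3850 CPM in WT normoxia, from 1110 to 1140 CPM in WT hypoxia, from 2180 to 3620 CPM in ΔN-VEGF normoxia and from 507 to 535 CPM in ΔN-VEGF hypoxia. Of these markers, 19 of 20 fell in ΔN-VEGF hypoxia, against 26.4% of all genes, with a median log2 fold change of -2.39. In WT hypoxia 0 of 20 were called by edgeR's test, against 18.3% of all genes lower and 18.2% higher. At an unadjusted p below 0.05, 3 were lower and 0 higher, against 24% and 22.1%, and DESeq2 called 1 lower, against 17.9%. Without replicate 2 of WT normoxia, 9 of 20 rose in WT hypoxia and 20 of 20 fell in ΔN-VEGF hypoxia, against 27.1% and 34.3% of all genes. The sum of 20 G2 and M phase genes ranged from 1320 to 4330 CPM, 845 to 879 CPM, 2410 to 2570 CPM and 566 to 601 CPM in the same order of groups. Of these, 20 of 20 fell in ΔN-VEGF cells and 16 of 20 in WT cells, against 26.4% and 18.3% of all genes. Without replicate 2 of WT normoxia, 15 fell and 2 rose in WT cells, against 26.9% and 27.1%. Both maxima of WT normoxia were in replicate 2. The G2 and M sum did not follow the repair genes throughout: in WT hypoxia it lay below replicates 1 and 3 of WT normoxia, at 1320 and 1350 CPM, while the median of the repair genes lay above them, and replicate 2 of ΔN-VEGF normoxia was at 2570 CPM beside 2410 and 2500 CPM. The median of the repair genes, as log2 CPM centred on the mean of each gene, was highest, at 0.874, in the sample with the highest S phase sum, replicate 2 of WT normoxia, and lowest, at -0.652 to -0.684, in the 3 samples with the lowest sums, those of ΔN-VEGF hypoxia. Replicates 1 and 3 of WT normoxia had medians of -0.155 and -0.166 and S phase sums of 838 and 817 CPM, below the 1110 CPM and more of WT hypoxia. The part of the cell cycle markers in the changes of the repair genes was not tested.

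**Figure D5:**
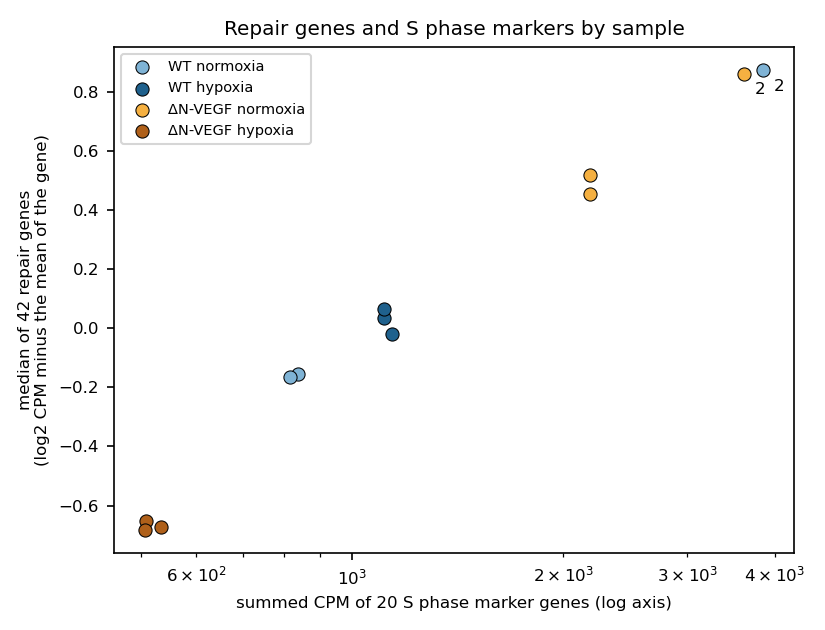
Median over the 42 repair genes of log2 CPM centred on the mean of each gene (vertical axis) against the summed CPM of 20 S phase marker genes (horizontal axis, log scale) in the 12 samples, coloured by group; the replicates numbered 2 of both normoxia groups are marked. The ΔN-VEGF hypoxia samples lie at the lower left, at 507 to 535 CPM, and the marked replicates at the upper right.

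Other repair genes were counted from lists of their own, 73 genes in all, of which 72 were tested. In ΔN-VEGF hypoxia 40 fell and 12 rose, against 26.4% and 26.9% of all genes. In WT hypoxia 23 fell and 10 rose, against 18.3% and 18.2%, and without replicate 2 of WT normoxia 18 fell and 21 rose, against 26.9% and 27.1%. With total counts only, 55 fell and 5 rose in ΔN-VEGF cells, against 44.5% and 15.3% of all genes under that scaling, and 35 fell and 7 rose in WT cells, against 32.7% and 12.8%. Of 23 other recombination genes, 14 fell and 2 rose in ΔN-VEGF cells. Dna2, a nuclease of long-range resection, fell by 3.96 on the log2 scale, Gen1, a resolvase, by 2.74, Fignl1, a recombination regulator, by 2.25 and the helicase Recql by 2.23. Of 15 other Fanconi and crosslink genes, 7 fell and 4 rose, with Usp1, the enzyme that takes ubiquitin off FANCD2, falling by 2.41, Cenps by 2.36, Slx1b by 1.54 and Mcm8 by 1.23.

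Of 20 damage signalling genes, 14 fell and 1 rose in ΔN-VEGF cells, where 26.4% of all genes fell and 26.9% rose. Clspn, the adaptor between ATR and CHK1, fell by 2.90, Timeless, a fork protection protein, by 2.38, Wee1, the kinase that restrains CDK1, by 1.99 and Rif1 by 1.57. Of 4 other mismatch repair genes, 1 fell and 1 rose: Pms1 fell by 1.48 and Mlh3 rose by 1.15. Of 10 genes of nonhomologous end joining, 4 fell and 4 rose. With total counts only 6 fell and 3 rose, against 44.5% and 15.3% of all genes under that scaling. Prkdc, the catalytic kinase, fell by 1.71 and Lig4, the ligase, by 1.67, while Paxx rose by 1.18 and Polm by 1.01.

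Promoters were read to see what the genes share in sequence near their starts. RefSeq windows of 250 bases before to 50 bases after the start (assembly GRCm38.p6) were at hand for 34 of the 42 genes. E2F sites were searched as TTTCGCGC, TTTGGCGC, TTTCCCGC and TTTGCCGC on both strands. They were present in 7 of the 34 genes (20.6%), against 2.6% of 27025 genes with a window, and in 5 of the 19 that fell at least 2-fold in ΔN-VEGF hypoxia and 2 of the other 15. The matches that lie wholly before the start are shown with the E2F letters, or their reverse complement, in capitals, since they carry the motif of S phase genes. Each is written along the strand of its gene.
Bard1 (chr1:71103164-71103191, minus strand): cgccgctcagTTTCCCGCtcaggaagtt
Brca2 (chr5:150522443-150522470, plus strand): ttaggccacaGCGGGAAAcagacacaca
Topbp1 (chr9:103305188-103305215, plus strand): cgctcggttgGCGCGAAAgtcggttccc
Fancg (chr4:43010336-43010363, minus strand): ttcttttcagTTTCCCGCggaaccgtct
Chek2 (chr5:110839821-110839848, plus strand): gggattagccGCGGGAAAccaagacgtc

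Bard1, Brca2 and Topbp1 fell at least 2-fold in ΔN-VEGF hypoxia, Fancg fell by less, and Chek2 did not pass the test. Msh6 and Rad51c also held a match, at or after the start. All starts are those of RefSeq. In the annotation of the counts, Fancg extends to position 43010506, so its match lies inside the gene there. The cell cycle element CHR (TTTGAA, both strands) was in 4 of the 34 windows, or 11.8%, against 20.2% of all genes, and CCAAT in 61.8% against 41.1%. The hypoxia response core, searched as ACGTG and GCGTG, was in 70.6% against 46.7%. These are matches of letters only, and base composition was not allowed for.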

How the data were processed

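RNA-seq of 12 NIH3T3 samples was used: WT and ΔN-VEGF cells in normoxia or hypoxia, 3 per group, grouped by the labels. Per the submitters' notes and methods, the authors made TruSeq v2 libraries (which do not mark strand), sequenced single reads, trimmed them with Trim Galore and cutadapt 1.10, aligned them with TopHat2 2.1.0 (Bowtie2 2.2.6) to GRCm38 patch 6 with Ensembl release 94, and deposited raw counts per gene from HTSeq 0.6.1. The strand setting of the counting is not given in the sources used here.

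Counts were tested in R 4.3.3 with edgeR 4.0.16 (limma 3.58.1): low counts removed by filterByExpr, TMM factors, 1 mean per group over 12 samples and a quasi-likelihood F test, adjusted by Benjamini-Hochberg across 14724 genes. CPM use TMM library sizes, and log2 CPM a prior count of 2. Alternatives were DESeq2 1.42.0, RLE factors, total counts, other filters, a fold change of at least 2, the 6 samples compared alone, each sample left out, and a replicate block.

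The members and lists were chosen with earlier results of these data known. All 42 members are named by role; values per sample are given for members with an adjusted p below 0.05 and at least 2-fold in hypoxia or in the interaction and for the paralog complexes (Rad51b, Rad51c, Rad51d, Xrcc2 and Xrcc3), and other members shown per sample were chosen after their values were seen. Of each other repair list up to 4 of the largest called changes in ΔN-VEGF hypoxia are named. Some genes are not reported here. After group means were removed, samples of equal number correlated at 0.36 to 0.5 between the lines in normoxia, every pair above 0.1, so the numbers were taken to pair these samples, although numbers 1 and 3 correlated with each other nearly as highly (0.35 and 0.36), and it is number 2 that stood apart in both lines; in the other comparisons the mean was 0.013 to 0.073. Gene overlaps and exon lengths came from GENCODE M21.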

Additional observations from a re-analysis of the deposited data

Results flagged for a closer look

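The hypoxia response differed between the lines for 4 of the 42 repair genes by the interaction test of edgeR (adjusted p below 0.05), always with a stronger fall in ΔN-VEGF cells. The log2 difference of responses, ΔN-VEGF minus WT, was -1.978 for Fancd2, -1.526 for Brca2, -0.8978 for Rad51c and -2.331 for Rad54l. Rad51c fell in both lines. Fancd2, Brca2 and Rad54l fell in ΔN-VEGF cells and did not pass the test in WT cells. Without replicate 2 of WT normoxia the differences were -2.63 for Fancd2, -1.82 for Brca2, -0.83 for Rad51c and -3.06 for Rad54l, and all passed the test. Each of these genes lost its call when certain other samples were left out, among them replicate 1 or replicate 3 of WT hypoxia.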

How the results depend on the processing

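The falls in ΔN-VEGF hypoxia kept their count within 1.5 times under every alternative run, with 23 genes at a fold of at least 2 and 37 with total counts only (44.5% of all genes). The 3 rises there became 1 under each of these. In WT hypoxia the counts of 8 lower and 1 higher became 2 and 0 at a fold of at least 2, 14 lower with total counts only (32.7% of all genes), 5 lower with the 6 samples compared alone (11.1%), and 22 higher (32.8%) without both normoxia samples numbered 2. In normoxia the 1 gene higher became 0 at a fold of at least 2 and with the 6 samples alone (0.0502% of all genes), and 29 higher and 2 lower without both samples numbered 2 (27.8% and 25.8% of all genes). In hypoxia the 15 lower and 2 higher in ΔN-VEGF cells became 30 lower with total counts only (22.2% of all genes), 30 and 4 with the 6 samples alone (29.1% and 27.9%), 31 and 5 without both samples numbered 2 (28.3% and 27.5%), and 0 higher at a fold of at least 2. The interaction's 4 lower became 13 with total counts only (5.13% of all genes), 9 with no filter (0.712%), 12 with DESeq2 (3.47%), and 32, with 2 higher, without both samples numbered 2 (27% and 25.8%). Total counts moved the median of all genes from -0.071 to -0.296 in WT hypoxia, from -0.0102 to -0.411 in ΔN-VEGF hypoxia, from -0.0147 to -0.235 between the lines in hypoxia and from 0.03 to -0.147 in the interaction. The cause of these shifts was not tested.

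Leaving out 1 sample gave 4 to 11 lower and 1 to 12 higher in WT hypoxia, against 12.2% to 26.9% and 14.6% to 27.1% of all genes. ΔN-VEGF hypoxia had 27 to 32 lower and 3 higher, against 20.4% to 34.3% and 22.5% to 32.8%. Between the lines in normoxia 0 to 29 were higher and 0 to 2 lower, against 0.376% to 25.7% and 0.726% to 23.2%. Between the lines in hypoxia 5 to 26 were lower and 2 to 4 higher, against 4.49% to 21.2% and 5.44% to 21.2%. The interaction had 0 to 32 lower and 0 to 1 higher, against 0.151% to 23% and 0.342% to 21.4%. The upper ends of the line comparisons and the interaction, and of the WT rises, came without replicate 2 of WT normoxia; without any other sample the ranges ended at 17 lower in hypoxia and 3 lower in the interaction. With the replicate block over 12 samples WT hypoxia had 2 higher, and with the block over the 6 samples compared, an alternative chosen after seeing the data, WT hypoxia had 1 lower and 0 higher (5.09% and 8.25% of all genes), normoxia 0 higher (0.00718%) and hypoxia 32 lower and 5 higher (31.2% and 30%); the block over 12 samples moved no other count of calls by over 1.5 times.

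With total counts only, Atr and Atrip had -0.39 and -0.38 in ΔN-VEGF hypoxia, close to the shift of the median of all genes. These results turned around: without replicate 2 of WT normoxia, the WT response was 0.45 for Brca1, 0.92 for Rad51ap1, 0.59 for Rad54l, 0.49 for Blm, 0.51 for Eme1 and 0.82 for Polq, and the difference of the lines in normoxia 0.60 for Topbp1. Their lowest values without another sample were -0.42 for Rad51ap1, -0.41 for Rad54l, -0.57 for Blm, -0.74 for Eme1, -0.73 for Polq and -0.27 for Topbp1. Without both samples numbered 2, it was 0.62 for Fancb, 0.26 for Fanci, 0.45 for Brca1, 0.24 for Brca2, 0.31 for Palb2, 0.92 for Rad51ap1, 0.59 for Rad54l, 0.48 for Exo1, 0.49 for Blm, 0.51 for Eme1, 0.83 for Polq, 0.45 for Chek1 and 0.23 for Chek2 in WT cells, and 0.41 for Topbp1 in normoxia.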
